A study of Mus musculus with 12 samples.

Results

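Ttr, Kl, Folr1, Aqp1, Otx2, Clic6, Slc4a5, F5, Enpp2 and Prlr are 10 genes of the choroid plexus epithelium, and their transcripts were measured in oligodendrocyte precursor cells (OPCs) and neurons isolated from mouse cortex. The genes were chosen by symbol, and all 10 were found among 30165 genes in the OPC table and among 17918 genes in the neuron table. RNA-seq was performed on 12 libraries, with 3 control (ctl) and 3 double knockout (dKO) libraries for each cell type, and every library pooled 2 mice of the same group. The study asked how the loss of the L-type calcium channels Cav1.2 and Cav1.3 from OPCs alters transcription in OPCs and in neurons. OPCs were held back on magnetic columns by CD140, NG2 or O4, and neurons were what passed after depletion by O4, CD11b, CD31 and ACSA-2, none of which is a marker used for choroid plexus epithelium.

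The dKO mice carried NG2-CreERT2 together with 2 floxed genes, Cacna1c at exons 14 and 15 (Cav1.2 fl/fl) and Cacna1d at exon 2 (Cav1.3 fl/fl). Tamoxifen, which activates this Cre, was injected on postnatal days 7 and 8 at a dose of 100 mg/kg. The labels give the genotype of ctl mice as WT. Whether ctl mice carried floxed alleles or Cre, whether they received tamoxifen, and the age and sex at RNA isolation are not given in the sources used here. The NG2 promoter that drives Cre is active in OPCs and also in pericytes, and a neuron library from a dKO mouse therefore reports neurons whose own channel genes were not the target.

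The choroid plexus is a folded tissue in the brain ventricles in which a single epithelial layer surrounds a leaky capillary core. The epithelium secretes cerebrospinal fluid, seals the blood-fluid barrier with tight junctions, and exports carrier proteins, vitamins and signalling enzymes into the fluid. Transthyretin is its best known secreted product and is commonly used to recognise the tissue.

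The libraries held 14935963 to 19812274 counts in OPCs and 15052892 to 16344601 in neurons. Levels are given as CPM, which are counts scaled to a common library total after edgeR's trimmed mean of M-values (TMM) adjustment. In the OPC libraries, 12 oligodendrocyte markers summed to between 49879 and 86382 CPM, against 301 to 1153 CPM for 9 OPC markers. In the neuron libraries, 12 neuron markers summed to between 617.5 and 1432 CPM, below 14 endothelial markers at 8323 to 17391 CPM and 5 red blood cell markers at 11091 to 73184 CPM. Transcripts of cells other than the labelled ones were thus present in every library, and no marker on these lists was at 0 in all libraries of a cell type. In such bulk libraries, fewer cells of a type and less RNA per cell cannot be told apart. As a check of the labels, the normalised count of Cacna1c in OPCs was 407 ± 33.1 (SD, n = 3) in ctl and 300.4 ± 43.5 in dKO. All 3 dKO values were below all 3 ctl values, as for 9.55% of all genes tested in OPCs. The log2 fold change of Cacna1c was -0.44 ± 0.15 (SE, edgeR adjusted p = 0.349). Cacna1d in OPCs was 232 ± 36.1 in ctl and 159 ± 69.9 in dKO, and the groups overlapped (log2 fold change -0.55 ± 0.31 SE, edgeR adjusted p = 0.531). The check is therefore weak.

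Ttr was among the most abundant transcripts of every library, in OPCs and in neurons alike. The gene, on chromosome 18, encodes transthyretin, which carries thyroid hormone and, with retinol binding protein, retinol. Ttr levels in OPCs were 22126, 9562 and 10696 CPM in ctl 1 to 3 and 15645, 16209 and 15259 CPM in dKO 1 to 3. The ctl 1 library was the highest, the other 2 ctl libraries were the lowest, and the dKO libraries lay between them. In neurons, Ttr was at 9105, 8544 and 4798 CPM in ctl and at 29902, 8372 and 14104 CPM in dKO. The dKO 1 and dKO 3 libraries were above all ctl libraries, whereas dKO 2 fell inside the ctl range. This 1 gene took between 0.940% and 2.23% of all counts in an OPC library and between 0.457% and 3.07% in a neuron library. On the per-length scale of TPM, it ranked first or second of all genes in each OPC library and between first and rank 6 in each neuron library.

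Enpp2 was the second most abundant of the 10 genes in both cell types. It encodes autotaxin, a secreted enzyme that makes lysophosphatidic acid, and maturing oligodendrocytes express it as well. The gene lies on chromosome 15 at 54702297 to 54816288, on the minus strand. These positions are those of the OPC table, whose build is mm39 in the submitters' processing notes. The study's methods name GRCm38, but the positions of Kl and Aqp1 in this table differ from their GRCm38.p6 start sites. Enpp2 in OPCs was at 13896, 7564 and 8235 CPM in ctl and at 9323, 8511 and 8275 CPM in dKO. Neuron levels were 6294, 7398 and 4169 CPM in ctl and 16085, 6502 and 12204 CPM in dKO. As for Ttr, OPC ctl 1 and neuron dKO 1 were the highest and OPC ctl 2 and neuron ctl 3 the lowest.

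**Figure D1:**
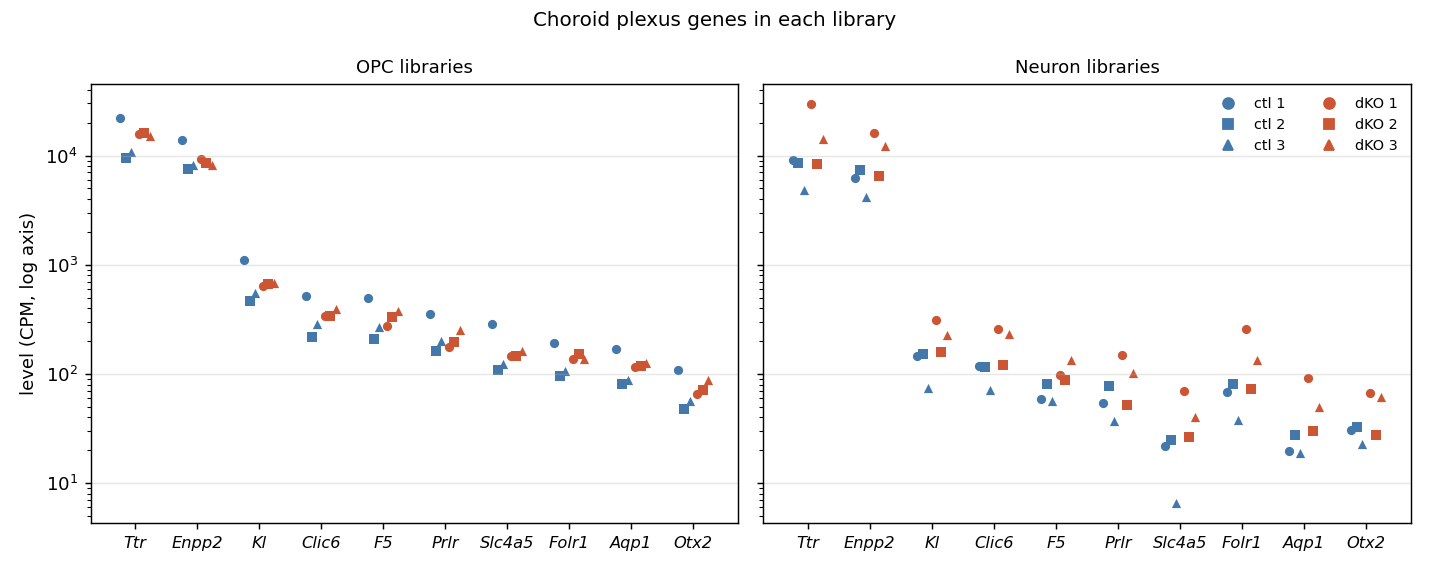
Level of each gene in CPM (log axis) in the 6 OPC libraries (left) and the 6 neuron libraries (right), with ctl in blue, dKO in orange and 1 symbol for each library number. The OPC ctl 1 library is the highest for all 10 genes, and the neuron dKO 1 library is the highest for all but F5.

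Kl and F5 encode the remaining proteins of this group that are found outside the cell. Kl (chromosome 5, 150876072 to 150917282, plus strand) encodes klotho, a membrane protein that is also shed and acts as a co-receptor for fibroblast growth factor 23. It stood at 1095, 461 and 554 CPM in ctl OPCs and at 640.5, 663 and 677 CPM in dKO OPCs. Neurons had 145, 153 and 74.4 CPM of Kl in ctl and 311, 160.4 and 226 CPM in dKO, and the groups did not overlap. F5 (chromosome 1, 163979407 to 164047846, plus strand) encodes coagulation factor V, the cofactor of factor Xa. F5 was at 492, 211 and 268 CPM in ctl OPCs and at 274, 331 and 379.5 CPM in dKO OPCs. Its neuron levels were 59.5, 80.2 and 56.8 CPM in ctl and 98.8, 88.9 and 135 CPM in dKO. For F5 the highest neuron library was dKO 3, and all 3 dKO libraries exceeded all 3 ctl libraries.

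The transport genes shared their highest and lowest libraries with Ttr, while the order of the libraries between these differed from gene to gene. Aqp1 (chromosome 6, 55313417 to 55325540, plus strand) encodes the water channel aquaporin 1 of the apical membrane. Aqp1 was at 171, 80.1 and 87.6 CPM in ctl OPCs and at 115, 119 and 127 CPM in dKO OPCs, whereas neurons had 19.7, 27.3 and 19.1 CPM in ctl and 92.1, 29.9 and 49.6 CPM in dKO. The neuron groups did not overlap for Aqp1, although dKO 2 was only just above ctl 2. Slc4a5 (chromosome 6, 83196810 to 83281927, plus strand) encodes an electrogenic sodium bicarbonate cotransporter. Slc4a5 was at 289.8, 109 and 123 CPM in ctl OPCs and at 145, 147 and 163 CPM in dKO OPCs. By its mean over the neuron libraries it was the least abundant member, at 22.1, 24.6 and 6.59 CPM in ctl and 69.5, 26.3 and 40.6 CPM in dKO, and again the groups did not overlap. The lowest of these values rests on 96 estimated counts.

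Clic6 and Folr1 complete the transport genes. Clic6 (chromosome 16, 92282624 to 92338131, plus strand) encodes a chloride intracellular channel family member. Clic6 was at 514, 218 and 286 CPM in ctl OPCs and at 342, 337 and 396 CPM in dKO OPCs. Neuron libraries held 119, 116 and 71.4 CPM of Clic6 in ctl and 259, 119.7 and 230.3 CPM in dKO, so that the highest ctl and the lowest dKO library were almost level. Folr1 (chromosome 7, 101507538 to 101519995, minus strand) encodes folate receptor alpha, which moves folate across the epithelium. Folr1 was at 191, 95.7 and 107 CPM in ctl OPCs and at 137, 154 and 137 CPM in dKO OPCs. Its neuron values of 68.6, 80.4 and 37.9 CPM in ctl and 257, 72.5 and 133 CPM in dKO overlapped through dKO 2.

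Prlr and Otx2 are the receptor and the transcription factor of the group. Prlr (chromosome 15, 10177324 to 10349266, plus strand) encodes the prolactin receptor, through which the hormone is taken up and sensed by the epithelium. Prlr was at 356, 163 and 200.5 CPM in ctl OPCs and at 175, 196 and 252 CPM in dKO OPCs. Its neuron levels were 53.7, 77.8 and 37.3 CPM in ctl and 149, 52.1 and 101 CPM in dKO, with dKO 2 below ctl 1. Otx2 (chromosome 14, 48895134 to 48911276, minus strand) encodes a homeodomain factor that the choroid plexus needs to form and to be maintained. Otx2 was at 108, 47.5 and 56.7 CPM in ctl OPCs and at 65.9, 70.9 and 88.8 CPM in dKO OPCs. In neurons it was at 30.6, 32.6 and 22.6 CPM in ctl and at 67.4, 27.5 and 62.1 CPM in dKO, which overlapped.

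Since Otx2 is the only transcription factor among the members and binds the letters TAATCC, the promoters of the members were searched for TAATCC on both strands. RefSeq promoter sequences (GRCm38.p6) were at hand for 6 of the 10 genes, with 11 promoters in all, and the 250 bases before each start site were used. Promoter positions are on that build and cannot be set against the gene positions given above. TAATCC was present in 1 of these 11 promoters, in 2 of 33 promoters of 28 other choroid plexus genes, and in 6.25% of 32851 promoters of all genes. The match was in a promoter of Otx2 itself, 211 bases before the start site, on the opposite strand. That window (chr14:48665110-48665359, minus strand) is shown with the match, GGATTA, in capitals, followed by the windows of Kl (chr5:150952357-150952606, plus strand) and Aqp1 (chr6:55336049-55336298, plus strand), in which the letters were not found.
Otx2: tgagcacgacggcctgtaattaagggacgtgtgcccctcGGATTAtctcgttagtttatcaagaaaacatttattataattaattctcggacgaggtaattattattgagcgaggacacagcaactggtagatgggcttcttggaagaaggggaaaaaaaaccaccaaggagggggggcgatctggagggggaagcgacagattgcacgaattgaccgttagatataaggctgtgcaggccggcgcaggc
Kl: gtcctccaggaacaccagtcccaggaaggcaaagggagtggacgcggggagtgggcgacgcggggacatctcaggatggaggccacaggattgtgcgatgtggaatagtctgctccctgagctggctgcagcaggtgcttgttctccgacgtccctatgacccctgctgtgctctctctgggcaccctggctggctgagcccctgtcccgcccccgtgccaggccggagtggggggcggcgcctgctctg
Aqp1: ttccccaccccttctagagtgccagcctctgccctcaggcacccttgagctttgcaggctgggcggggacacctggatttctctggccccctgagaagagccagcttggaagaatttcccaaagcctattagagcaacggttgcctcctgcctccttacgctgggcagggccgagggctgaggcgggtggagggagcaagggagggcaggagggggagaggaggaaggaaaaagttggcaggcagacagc
A match describes the letters of the window and not a bound site. The 3 windows differ in composition, with 14 CpG dinucleotides in the Otx2 window, 13 in that of Kl and 5 in that of Aqp1, against a median of 6 over all promoters.

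The order of the members by TPM, which compares genes per length, was the same in every OPC library but for 1 pair and changed for 4 pairs of neighbours in neurons. In OPCs the mean TPM over 6 libraries was 44542 ± 13192 (SD) for Ttr and 5719 ± 1449 for Enpp2, a 7.79-fold step, and 317 ± 94.9 for Clic6, an 18.1-fold step. Below these came Kl at 259.8 ± 84.6, Folr1 at 211 ± 51.1, Aqp1 at 158 ± 44.6 and F5 at 156 ± 50.1 TPM. Slc4a5 followed at 99.9 ± 40.8, Otx2 at 61.5 ± 19.6 and Prlr at 52.1 ± 17.7 TPM. From Clic6 downward the ranges of neighbouring genes overlapped across libraries, but within a library each gene exceeded the next in 6 of 6 libraries, with the exception of Aqp1 and F5, whose order changed in 3 of 6. In neurons Ttr was at 32704 ± 19160 TPM and Enpp2 at 4551 ± 1989 TPM, followed by Folr1 at 199 ± 118 TPM. Clic6 at 69.3 ± 30.8, Kl at 58.3 ± 22.3, Prlr at 36.8 ± 13.4, Otx2 at 31.8 ± 13.7, Aqp1 at 24.3 ± 14.1, F5 at 19.5 ± 7.38 and Slc4a5 at 10.1 ± 5.75 TPM completed the neuron order. Of the neuron neighbours, Aqp1 and F5 could again not be ordered, with Aqp1 the higher in 2 of 6 libraries. Prlr was above Otx2, Otx2 above Aqp1 and F5 above Slc4a5 in 5 of 6 libraries each, and all neighbours from Folr1 downward had overlapping ranges.

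In OPCs, no difference between dKO and ctl was detected for any of the 10 genes. The 10 genes together made up 39239, 18511 and 20614 CPM in ctl and 26862, 26739 and 25755 CPM in dKO, so the 3 dKO libraries were alike and lay between ctl 1 and the other ctl libraries. Fitted log2 fold changes were small and of either sign, from -0.21 ± 0.28 (SE) for Prlr, -0.20 ± 0.33 for Slc4a5 and -0.19 ± 0.31 for Enpp2 to 0.12 ± 0.24 for Folr1 and 0.15 ± 0.38 for Ttr. Kl at -0.09 ± 0.29, F5 at 0.02 ± 0.29, Clic6 at 0.08 ± 0.28, Otx2 at 0.09 ± 0.28 and Aqp1 at 0.09 ± 0.26 lay between. Adjusted p-values in edgeR's quasi-likelihood test ran from 0.813 to 0.988. In that test 0 of 10 members passed an adjusted p of 0.05, against 0.00576% of the 17364 genes tested. At an unadjusted p of 0.05 there were 0 members higher and 0 lower, against 6.27% and 5.27% of all genes, and in DESeq2 there were 0 against 1.69%. In no member were the groups free of overlap, which 7.41% of all genes were in the higher and 9.55% in the lower direction. The members' median log2 fold change was 0.05, beside 0.01 over all genes.

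The sign of the fitted difference in OPCs depended on single libraries. Without ctl 1, all 10 members had a higher fitted level in dKO, 6 of them at an unadjusted p of 0.05 (5.26% of all genes), the median log2 fold change was 0.48, and none passed the adjusted threshold. Without ctl 2 or without ctl 3, all 10 had a lower fitted level in dKO, with medians of -0.19 and -0.09. Without dKO 3, the fitted difference was -0.059 for Otx2, -0.0082 for Clic6 and -0.11 for F5, and 3 of 10 members were higher.

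In neurons, the fitted level of all 10 genes was higher in dKO than in ctl, by 0.72 to 1.37 on the log2 scale, but no gene passed the adjusted threshold. The 10 genes summed to 15918, 16534 and 9293 CPM in ctl and to 47291, 15452 and 27287 CPM in dKO. Log2 fold changes were 1.37 ± 0.37 (SE) for Aqp1, 1.35 ± 0.49 for Slc4a5, 1.31 ± 0.44 for Folr1, 1.22 ± 0.46 for Ttr and 0.99 ± 0.31 for Clic6. Those of Enpp2 at 0.96 ± 0.36, Kl at 0.90 ± 0.31, Otx2 at 0.87 ± 0.32, Prlr at 0.84 ± 0.38 and F5 at 0.72 ± 0.20 were smaller. The adjusted p in edgeR's quasi-likelihood test was 0.521 for 9 genes and 0.558 for Prlr. In that test 0 of 10 members and 0.0% of the 14352 genes tested passed an adjusted p of 0.05. At an unadjusted p of 0.05, 9 members were higher and 0 lower, against 4.96% and 4.04% of all genes, and DESeq2 called 1 member, Aqp1 (adjusted p = 0.0486), against 0.614% of all genes. The groups did not overlap for 5 members, Kl, Aqp1, Clic6, Slc4a5 and F5, all higher in dKO, and for 7.5% of all genes in that direction and 7.82% in the other. The 10 genes were measured in the same libraries and, with F5 as a partial exception, moved together, so that these counts do not describe 10 separate results.

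The neuron difference was smaller without the libraries dKO 1 and ctl 3. These were picked after their levels were seen, as the highest dKO and the lowest ctl library by the summed level. Leaving them out therefore lowers the difference by that choice alone. Without dKO 1, 3 of 10 members were higher at an unadjusted p of 0.05 (3.94% of all genes), and the members' median log2 fold change went from 0.98 to 0.69. Without ctl 3, 4 of 10 were higher at that threshold (3.94% of all genes), with a median of 0.77. Without both libraries there were 2 of 10, Aqp1 and F5 (4.89% of all genes), with a median of 0.48 and no member with a lower fitted level in dKO. Aqp1 was then at 0.75 ± 0.29 (SE), F5 at 0.68 ± 0.24, Ttr at 0.34 ± 0.25 and Prlr at 0.22 ± 0.32. The dKO 2 library had a summed level of 15452 CPM, below that of ctl 1 and ctl 2.

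**Figure D2:**
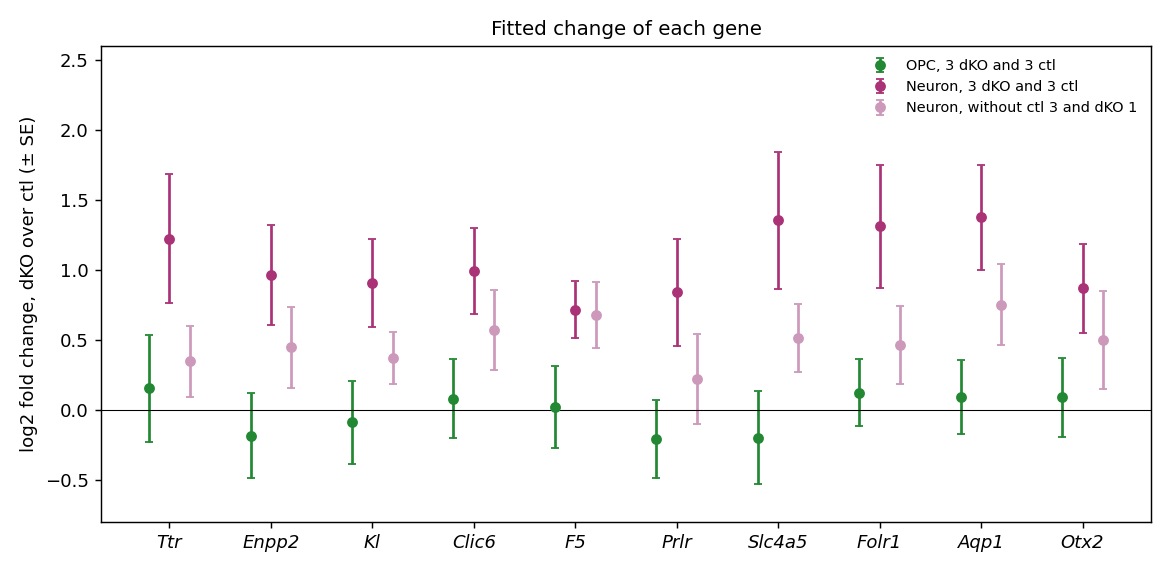
Log2 fold change of each gene, dKO over ctl, with its standard error as a bar, in OPCs (green), in neurons (purple) and in neurons without ctl 3 and dKO 1 (pale purple). The OPC values lie between -0.21 and 0.15, and the neuron values, from 0.72 to 1.37, are between 0.22 and 0.75 when the 2 libraries are left out. Those 2 were picked after their levels were seen, as the lowest ctl and highest dKO library by the genes' summed level.

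Other cell type markers also moved between the neuron libraries. The dKO 1 library, highest in choroid plexus genes, had the highest sum of red blood cell markers (73184 CPM, against 11091 to 49174 in ctl and 17390 to 27302 in the other dKO libraries) and of neuron markers (1432 CPM, against 617.5 to 827.5 in ctl and 816 to 928 in the other dKO libraries). Endothelial markers differed between the genotypes without overlap, with sums of 16424 to 17391 CPM in ctl and 8323 to 14910 CPM in dKO, the lowest of them in dKO 1. All 14 had a lower fitted level in dKO neurons, 8 of them without overlap (7.82% of all genes) and 3 at an unadjusted p of 0.05 (4.04% of all genes), with a median log2 fold change of -0.40. Fitted levels in dKO neurons were also lower for 12 of 12 oligodendrocyte markers (median -0.95, 2 at that threshold) and 12 of 12 microglia markers (median -0.67, 0 at that threshold), whose summed levels overlapped between the groups. Higher fitted levels in dKO were found for 10 of 12 ependymal markers (median 0.73, 3 higher and 1 lower at that threshold), 10 of 12 neuron markers (median 0.53, 1 at that threshold, 10 highest in dKO 1) and 5 of 5 red blood cell markers (median 0.38, 0 at that threshold, 5 highest in dKO 1). Of all genes, 4.96% were higher at that threshold, 29.1% were highest in dKO 1 and 18.2% were lowest in ctl 3. The ctl 3 library, lowest in choroid plexus genes, had the second highest sum of red blood cell markers, at 49174 CPM. It was also the lowest in oligodendrocyte markers, at 789 CPM against 1200.4 to 4162 CPM in the other libraries (10 of 12 markers lowest there), and in mural markers, at 644 CPM against 921 to 1539 CPM (8 of 10 lowest there). Ependymal markers, which come from the ciliated cells next to the choroid plexus in the ventricle wall, were at 66.9 to 106 CPM in ctl and 80.9 to 188 CPM in dKO, with dKO 1 the highest and ctl 3 the lowest. Meningeal fibroblast markers were at 217 to 359 CPM in ctl and 274 to 304 CPM in dKO, with the lowest sum in ctl 3 and the highest in ctl 2. The part of these other cells in the neuron result was not tested.

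The 10 genes shared most of their highest and lowest libraries within each cell type, with F5 in neurons the least like Ttr. All 10 were highest in OPC ctl 1 and lowest in OPC ctl 2, as were 14.6% and 22.9% of all genes tested in OPCs. In neurons 9 of 10 were highest in dKO 1 and 10 of 10 were lowest in ctl 3, against 29.1% and 18.2% of all genes. These 4 libraries were picked after their levels were seen. The median SD of the log2 level over the 6 libraries was 0.42 for the members and 0.27 for all genes in OPCs, and 0.72 and 0.31 in neurons. When each member was divided by Ttr of the same library, the median SD of the log2 ratio was 0.17 in OPCs and 0.31 in neurons. F5 in neurons was an exception, with an SD of 0.68 for the ratio and 0.47 for the level. Of 13 ependymal markers tested in OPCs, 13 were lowest in ctl 2 but only 3 highest in ctl 1, and of 12 tested in neurons 9 were highest in dKO 1 and 7 lowest in ctl 3.

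**Figure D3:**
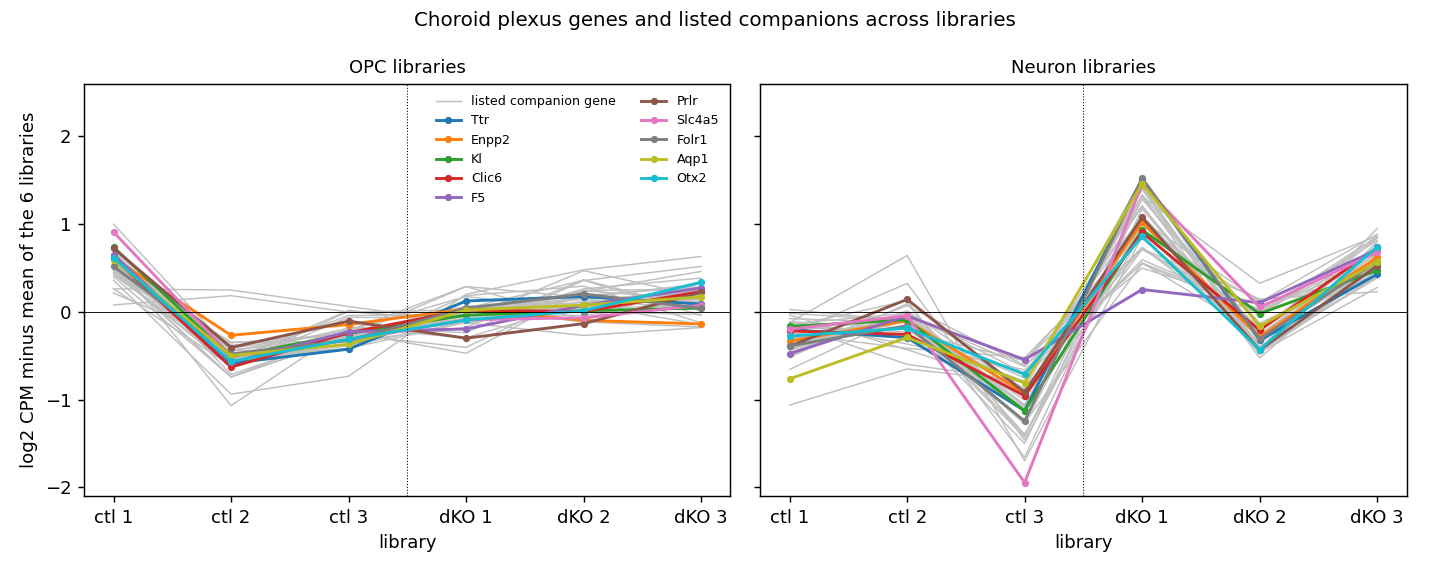
Log2 CPM of each gene minus its mean over the 6 libraries of a cell type, with the 10 genes in colour and 32 companion choroid plexus genes in grey, and a dotted line between ctl and dKO. The coloured lines share the OPC peak in ctl 1 and dip in ctl 2 and the neuron dip in ctl 3 and peak in dKO 1, except that F5 peaks in neuron dKO 3.

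A list of 33 further choroid plexus names, of which 32 were in each table and tested, showed the same highest and lowest libraries for most of its genes. This list holds channels, transporters, tight junction genes and transcription factors of the epithelium. In OPCs 28 of 32 were highest in ctl 1 and 29 of 32 lowest in ctl 2. Slc12a2, which encodes the NKCC1 cotransporter and was picked out after its levels were seen, stood apart, with 1282 CPM in ctl 2 as its highest and 1001 CPM in dKO 3 as its lowest level. Car14, a carbonic anhydrase, was at 145, 144 and 126 CPM in ctl OPCs and at 111, 101 and 107 CPM in dKO OPCs, and every dKO library was below every ctl library (log2 fold change -0.38 ± 0.11 SE, edgeR adjusted p = 0.304). Tmem72 was at 320.3, 130.3 and 150.2 CPM in ctl OPCs and at 287, 348 and 386 CPM in dKO OPCs (log2 fold change 0.76 ± 0.32 SE, edgeR adjusted p = 0.416). Relative to Ttr, Tmem72 was higher in all dKO than in all ctl OPC libraries, at a mean of 2.17 counts per 100 Ttr counts in dKO and 1.40 in ctl. It was the 1 companion of 32 that was higher in this way (0.685% of all genes), while 6 of 32, Ecrg4, Car12, Lmx1a, Trpv4, Atp2b3 and Ace, were lower relative to Ttr without overlap (2.54% of all genes).

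Of the companions, 0 passed the adjusted threshold in either cell type in edgeR. At an unadjusted p of 0.05, 1 of 32 was higher (Tmem72) and 1 lower (Car14) in dKO OPCs, where 6.27% and 5.27% of all genes were, and 28 of 32 were higher and 0 lower in dKO neurons, where 4.96% and 4.04% of all genes were. All 32 had a higher fitted level in dKO neurons, and the median log2 fold change was 1.00, beside 0.98 for the 10 members. Without ctl 3 and dKO 1, 4 of 32 were higher at an unadjusted p of 0.05 (4.89% of all genes), with a median of 0.41. DESeq2 called 0 in OPCs (1.69% of all genes) and 1 in neurons (0.614% of all genes), Wfikkn2, a secreted protease inhibitor family gene (log2 fold change 1.71 ± 0.39 SE, DESeq2 adjusted p = 0.00962). When the neuron libraries were scaled to these companions instead of to all genes, 7 of 10 members were higher and 0 passed an unadjusted p of 0.05, which 0.174% of all genes did in the higher and 11.6% in the lower direction. The median of the members' log2 fold changes was then 0.05. Because the companions moved with the members, this scaling takes out most of the members' difference by construction and is no test of it.

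Members and companions were also among the genes whose profile was most like that of Ttr. Likeness was measured as the root mean square difference from Ttr of log2 levels centred over the 6 libraries, among genes with a mean normalised count of at least 50. In OPCs the 5 nearest were 2900040C04Rik at 0.06, Ecrg4 at 0.07, Vat1l at 0.07, Kcnj13, a potassium channel of the epithelium, at 0.07, and Slc13a4, a sulfate transporter, at 0.08, against a median of 0.45 over 13445 genes. In neurons they were Steap1 at 0.08, Ecrg4 at 0.10, Wfdc2 at 0.10, Rdh5 at 0.11 and Folr1 at 0.12, against a median of 0.85 over 12438 genes. Of the 100 genes nearest to Ttr, 6 were members and 15 were companions in OPCs, and 6 and 15 in neurons. Among the members, Aqp1 and Folr1 ranked 6 and 7 in OPCs, while Prlr ranked 485. Folr1 ranked 5 in neurons, while F5 ranked 1221.

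Ratios to Ttr set the members against the most abundant gene of the group in each library. In OPCs, Enpp2 was at 62.8, 79.1 and 77.0 counts per 100 Ttr counts in ctl and at 59.6, 52.5 and 54.2 in dKO, without overlap. Kl was at 4.95, 4.83 and 5.18 in ctl OPCs and at 4.09, 4.09 and 4.44 in dKO OPCs, and Slc4a5 was at 1.31, 1.14 and 1.15 in ctl and at 0.927, 0.909 and 1.07 in dKO. Oligodendrocyte markers summed to 67653, 79832 and 73235 CPM in these ctl libraries and to 86382, 71647 and 49879 CPM in these dKO libraries, which overlapped. Of 12 such markers, 10 had a lower fitted level in dKO OPCs, 3 of them at an unadjusted p of 0.05 (5.27% of all genes), and the median log2 fold change was -0.42. The one with the smallest p was Aspa, a marker of mature oligodendrocytes, at -0.72 ± 0.14 (SE; edgeR adjusted p = 0.246, DESeq2 adjusted p = 0.00241). The part of oligodendrocytes in the Enpp2 ratio was not tested. Enpp2, Kl and Slc4a5, 3 of the other 9 members, were lower relative to Ttr in all dKO libraries, against 2.54% of all genes and the 6 of 32 companions named, and 0 were higher, against 0.685%. The mean log2 ratio in dKO minus that in ctl was -0.39 for Enpp2, -0.24 for Kl and -0.31 for Slc4a5. Prlr had a difference as large, at -0.40, but dKO 3 with 1.65 counts per 100 Ttr counts lay above ctl 1 with 1.61. With 3 libraries against 3, an exact permutation test could not give a p below 0.1, and none was run. All 9 ratios had a lower mean in dKO OPCs and all 9 share the Ttr value of each library.

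In neurons, 0 of 9 ratios to Ttr were free of overlap in either direction, against 25.1% of all genes that were lower and 0.0488% that were higher in dKO. The F5 ratio spread the most, from 0.330 counts per 100 Ttr counts in dKO 1 to 1.18 in ctl 3. The Slc4a5 ratio was lowest in ctl 3, at 0.137, and between 0.232 and 0.314 in the other 5 libraries. Folr1 was the steadiest, from 0.753 to 0.946.

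**Figure D4:**
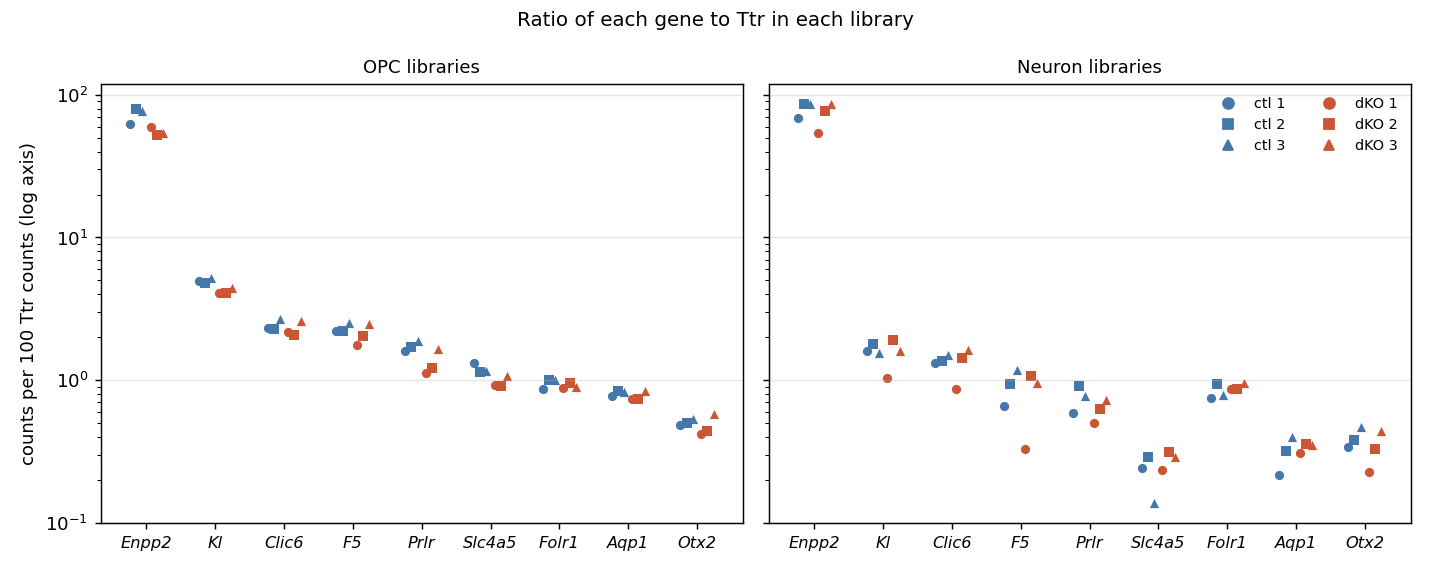
Counts of each gene per 100 Ttr counts (log axis) in the OPC (left) and neuron (right) libraries, with ctl in blue and dKO in orange. The Enpp2 ratio spans 52.5 to 79.1 in OPCs and 53.8 to 86.9 in neurons, whereas the Slc4a5 ratio spans 0.909 to 1.31 in OPCs and 0.137 to 0.314 in neurons.

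Set side by side, the cell types had similar ratios for some members and not for others. Enpp2 was at 64.2 ± 11.4 (SD, n = 6) counts per 100 Ttr counts in OPCs and 76.8 ± 13.3 in neurons. Oligodendrocyte markers summed to 49879 CPM or more in each OPC library and to 4162 CPM or less in each neuron library, and how much of the Enpp2 counts came from oligodendrocytes was not tested. Folr1 was also similar, at 0.931 ± 0.0597 in OPCs and 0.860 ± 0.0782 in neurons. Kl was at 4.60 ± 0.457 in OPCs and 1.58 ± 0.300 in neurons, F5 at 2.20 ± 0.284 and 0.854 ± 0.311, Aqp1 at 0.789 ± 0.0481 and 0.325 ± 0.0618, and Slc4a5 at 1.08 ± 0.151 and 0.250 ± 0.0633. The 2 tables were counted in different ways and on different annotations, so no test was made between cell types, and a difference in counting cannot be told apart from one between cell types.

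The neuron table lists transcripts, which showed how far a member's level came from 1 isoform. Aqp1, Clic6 and F5 had 1 transcript each, and 1 of 2 Kl transcripts held 99.4% to 99.7% of its counts. For Ttr, 1 of 2 transcripts held 89.8% to 90.8% in every library. The leading Enpp2 transcript of 10 held 49.7% to 50.9%, and the next 21.6% to 23.6%. The leading Slc4a5 transcript of 5 held 85.6% to 100.0%. The shares of Prlr, with 53.5% to 83.2% for the leading transcript of 7, varied more between libraries, and Otx2 and Folr1 were spread over 10 and 12 transcripts.

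The partners of the members were read from 7 short lists, and in edgeR 0 of their genes passed the adjusted threshold in either cell type. Their counts at an unadjusted p of 0.05 stand beside 6.27% of all genes higher and 5.27% lower in OPCs and 4.96% higher and 4.04% lower in neurons. In the same OPC libraries, 12 of 12 microglia markers were higher in dKO at that threshold (median log2 fold change 1.33, 8 without overlap, against 7.41% of all genes), with sums of 261 to 314 CPM in ctl and 341 to 1060 CPM in dKO, as were 9 of 10 astrocyte markers (median 1.20, 6 without overlap). The part of microglia and astrocytes in the OPC values of the partner genes was not tested. The lists are so short that 1 gene of a list exceeds these shares. Of 9 tested genes of thyroid hormone and retinol carriage, the partners of Ttr, 1 was higher at an unadjusted p of 0.05 in dKO OPCs. This was Dio2, which activates thyroid hormone (log2 fold change 1.47 ± 0.43 SE, edgeR adjusted p = 0.310; DESeq2 adjusted p = 0.0329). None of the 9 passed an unadjusted p of 0.05 in neurons. For lysophosphatidic acid signalling, which acts on the product of Enpp2, 1 of 8 genes was higher (Plpp3, a lipid phosphatase, 0.90 ± 0.26) and 1 lower (Plpp2, -0.43 ± 0.16) at that threshold in dKO OPCs. In dKO neurons 2 of 7 were lower, the receptor genes Lpar6 at -0.65 ± 0.14 and Lpar4 at -0.56 ± 0.21, and DESeq2 called Lpar6 (adjusted p = 0.00589). Summed endothelial markers were also lower in all dKO than in all ctl neuron libraries, and their part in these receptor values was not tested.

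Among genes around factor V, 3 of 7 were higher in dKO OPCs at an unadjusted p of 0.05. They were F3, tissue factor (1.13 ± 0.24), F2r, a thrombin receptor (0.66 ± 0.16), and Thbd, thrombomodulin (0.95 ± 0.35), and DESeq2 called F3 and F2r (adjusted p = 0.00503 and 0.0390). In dKO OPCs, 14 of 14 endothelial markers also had a higher fitted level (median log2 fold change 0.34), with sums that overlapped between the groups. The part of endothelial cells in these OPC values was not tested. In dKO neurons 2 of 7 were lower, Tfpi at -0.60 ± 0.20 and Procr at -0.49 ± 0.20, both known from endothelial cells. The endothelial markers had lower sums in all dKO than in all ctl neuron libraries, and their part in these values was not tested. Of 6 genes of klotho and fibroblast growth factor receptor signalling, Fgfr3 was higher (1.24 ± 0.31, DESeq2 adjusted p = 0.0119) and Fgfr2 lower (-0.42 ± 0.15) in dKO OPCs, and 1 of 3 was higher in dKO neurons, Fgfr2 at 0.44 ± 0.19. Fgfr3 is also an astrocyte marker, and the summed astrocyte markers were at 974 to 1697 CPM in ctl and 1644 to 4953 CPM in dKO OPCs.

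Of 14 water, bicarbonate and chloride transport genes, 2 were higher in dKO OPCs at an unadjusted p of 0.05, Slc4a4 at 1.35 ± 0.42 and Clic1 at 0.63 ± 0.26. Slc4a4, like Fgfr3, is also on the list of astrocyte markers. In dKO neurons 3 were higher and 1 was lower, among them Atp1b1, a sodium pump subunit, at 0.83 ± 0.31 and Aqp11 at -0.53 ± 0.17. Prolactin signalling and folate uptake, with 7 genes each tested in OPCs and 7 and 6 in neurons, had 0 genes at that threshold in either cell type.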

How the data were processed

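RNA-seq values of OPC and neuron libraries were used as deposited. For OPCs, the authors aligned reads with HISAT2, and the raw read counts per gene from featureCounts were deposited, together with FPKM values that the authors scaled by gene length and depth. For neurons, the authors deposited estimated counts and TPM per RefSeq transcript. The study's methods name featureCounts for each sample, but a program for estimated counts per transcript is not given in the sources used here. The neuron columns name the knockout cKO. The authors' own fold changes and p-values were not used. Whether counting used strand is not given in the sources used here.

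Estimated counts were summed per gene and rounded, and OPC FPKM was rescaled to TPM. In each cell type, dKO was compared with ctl by the quasi-likelihood test of edgeR 4.0.16 under R 4.3.3, over genes whose TMM-normalized counts averaged 10 or more, with p-values adjusted after Benjamini and Hochberg over all of them and a threshold of 0.05. Standard errors come from dividing each log2 fold change by the root of its F statistic. DESeq2 1.42.0, other normalizations, no filter, a replicate block, each library left out, scaling to companion genes and leaving out neuron ctl 3 and dKO 1 together were alternatives, the last 2 chosen after seeing the data. Library totals were 14935963 counts or more. Relative counting error is largest for genes near the filter, and it was not compared with the spread between libraries. Each library pooled 2 mice, so p-values measure the spread between pools. On simulated counts in which 200 genes differed by 2 on the log2 scale, the test called 165 in OPCs and 169 in neurons, with 12 and 18 false calls. That difference is larger than any member's fitted change, and genes were drawn without shifts shared within a library. These counts therefore do not show how often changes like those of the members would be called.

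The members and lists were chosen with earlier results of these data known. Every member is named, with up to 3 genes of smallest p from each other list and the 5 genes most like Ttr. Summed marker levels, some of them also given with the results, were as follows. In the OPC libraries, microglia markers (12 genes) were at 261 to 314 CPM in ctl and 341 to 1060 CPM in dKO, endothelial markers at 1798 to 2565 and 1552 to 4210, mural markers at 909.9 to 1298 and 776 to 1592, neuron markers at 100.1 to 124 and 112 to 152, ependymal markers at 442 to 751 and 547 to 723, meningeal markers at 191 to 278 and 253 to 493, and red blood cell markers at 10.4 to 23.3 and 19.5 to 35.6. In the neuron libraries, oligodendrocyte markers were at 789 to 4162 CPM in ctl and 1200.4 to 1997 CPM in dKO, OPC markers at 209 to 255 and 232 to 301, astrocyte markers at 373 to 942 and 263 to 496, mural markers at 644 to 1539 and 921 to 1430, and microglia markers at 419 to 1875 and 400 to 1045.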

Additional observations from a re-analysis of the deposited data

How the results depend on the processing

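The number of members past an adjusted p of 0.05 was 0 in each cell type in edgeR under every alternative fit, including each library left out (0 to 0), and DESeq2 gave 1 in neurons, Aqp1 at a log2 fold change of 1.37. At an unadjusted p of 0.05 the neuron count was 9. In neurons all 10 log2 fold changes stayed positive when any library was left out. In OPCs the sign of all 10 depended on which library was left out: without ctl 2 and without ctl 1, respectively, the lowest and highest values were -0.064 and 0.63 for Ttr, -0.32 and 0.38 for Kl, -0.060 and 0.50 for Folr1, -0.10 and 0.52 for Aqp1, -0.13 and 0.53 for Otx2, -0.16 and 0.51 for Clic6, -0.45 and 0.39 for Slc4a5, -0.21 and 0.45 for F5, -0.35 and 0.14 for Enpp2, and -0.42 and 0.19 for Prlr. The log2 ratio of the summed level, 0.02 in OPCs and 1.11 in neurons, ranged from -0.18 to 0.44 and from 0.62 to 1.42. Scaled to the companion genes, F5 in OPCs was at -0.056, and in neurons Otx2 was at -0.11, F5 at -0.13 and Prlr at -0.13. The cause was not tested. With the replicate block, Kl in OPCs was at 0.017, 7 neuron members were higher at an unadjusted p of 0.05 (4.84% of all genes), and an adjusted p of 0.05 was passed by 27 of all genes in OPCs and by 0 in neurons. Libraries of the same number did not deviate together, with correlations of -0.11, 0.15 and 0.12 in OPCs and 0.17, -0.07 and -0.07 in neurons, so the numbers were not taken as pairs. Over all OPC genes the count past an adjusted p of 0.05, 1 in edgeR, was 293 in DESeq2, 199 without dKO 2, 87 without the filter and 37 when scaled to the companion genes. Over all neuron genes it was 0 in edgeR with TMM, 88 in DESeq2 and 127 when scaled to the companion genes.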
